A study of Mus musculus with 8 samples.

Results

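The genes described here are 36 genes of DNA replication and mitosis, taken by symbol from the 8 count files of the series. All 36 were found among the 47517 symbols in the files, and all 36 were among the 21392 symbols that passed the filter on low counts. By role, 15 act in the S phase, when DNA is copied, or at the step into it, and 21 act in mitosis or in the G2 phase before it. RNA was taken from inner ears at postnatal day 14 (the sample labels name the inner ear, the series title the cochlea). The mutant group was heterozygous for a frameshift in Thra that alters thyroid hormone receptor α1, the control group was made of wild-type littermates, and neither group was treated. Each group holds 4 libraries, called here wild-type replicates 1 to 4 and mutant replicates 1 to 4. Strain is not given in the sources used here, and the labels do not say whether a library is 1 animal or a pool, so the spread between libraries may in part be technical.

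Cells that divide pass through the S phase and mitosis in turn, and each step has its own set of transcripts. At the entry into S phase, E2F transcription factors switch on genes for loading the replicative helicase, for the sliding clamp of the DNA polymerases and for the supply of nucleotides. Later, a complex that contains MuvB and B-Myb or FOXM1 switches on cyclins, kinases and spindle proteins, which are destroyed again as the cell leaves mitosis. Hair cells and supporting cells of the cochlea have left the cell cycle by birth, while blood-forming marrow, growing bone and surface epithelia around the labyrinth still divide in the second postnatal week. In bulk RNA, fewer cells of a type and less RNA per cell cannot be told apart.

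Promoters show how the S phase and mitotic members differ in sequence, independently of the counts. Windows from 250 bases before to 50 bases after the start were taken from RefSeq on GRCm38.p6. Such windows were held for 29 of the 36 members, 30 windows in all, since Mcm7 has 2. Aurkb, Ccna2, Ccne2, Foxm1, Kif20a, Mcm4 and Tpx2 had none in the table. The words searched, on both strands, were TTTCCCGC, TTTGGCGC, TTTCGCGC and TTTGCCGC for E2F, TTTGAA and TTCGAA for the cell cycle genes homology region (CHR, the element that MuvB contacts), and CCAAT, the box bound by NF-Y. Overlapping words were each counted. An E2F word lay in 6 of 14 S phase windows (42.9%) and in 1 of 16 mitotic windows (6.25%, that of Cdk1), against 2.26% of all 32851 windows. A CHR word together with a CCAAT box lay in 12 of 16 mitotic windows (75.0%) and in 2 of 14 S phase windows (14.3%), against 7.52% of all windows. A CCAAT box, with or without a CHR word, was frequent in both groups, in 64.3% of S phase and 87.5% of mitotic windows, against 37.4% of all windows. These matches describe letters in a window and do not show that a factor binds there.

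The 160 bases before the start are printed for 3 members of each group, chosen to show these words, on the strand of the gene. Capitals mark E2F words, CHR words and CCAAT boxes, read on either strand. The S phase members are Mcm5 (chr8:75109349-75109508, plus strand), Mcm6 (chr1:128359706-128359865, minus strand) and Cdc6 (chr11:98907991-98908150, plus strand). The starts used are those of RefSeq, and the Cdc6 stretch lies inside the gene as annotated in GENCODE M21 (chr11:98907801-98923940). In Mcm5 and Mcm6 a pair of E2F words on opposite strands overlaps into a run of capitals.
Mcm5: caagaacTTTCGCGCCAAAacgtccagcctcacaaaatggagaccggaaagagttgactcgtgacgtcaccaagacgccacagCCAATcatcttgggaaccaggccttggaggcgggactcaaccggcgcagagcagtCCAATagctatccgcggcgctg
Mcm6: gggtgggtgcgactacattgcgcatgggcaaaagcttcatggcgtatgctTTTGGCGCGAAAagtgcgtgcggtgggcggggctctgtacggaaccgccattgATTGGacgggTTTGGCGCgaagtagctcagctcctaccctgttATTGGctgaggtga
Cdc6: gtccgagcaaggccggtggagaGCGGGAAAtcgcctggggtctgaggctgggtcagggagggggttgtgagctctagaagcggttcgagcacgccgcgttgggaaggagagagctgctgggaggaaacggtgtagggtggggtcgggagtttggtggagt

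The mitotic members are Cdk1 (chr10:69352913-69353072), Top2a (chr11:99024190-99024349) and Mki67 (chr7:135716380-135716539), all on the minus strand. The Cdk1 bases nearest the start lie inside the gene as annotated in GENCODE M21 (chr10:69335146-69352938). Cdk1 carries an E2F word as well as 2 CHR words, and Top2a carries 3 CHR words and 4 CCAAT boxes.
Cdk1: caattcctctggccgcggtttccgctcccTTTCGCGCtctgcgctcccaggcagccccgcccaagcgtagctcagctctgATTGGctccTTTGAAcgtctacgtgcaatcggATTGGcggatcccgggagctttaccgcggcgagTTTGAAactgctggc
Top2a: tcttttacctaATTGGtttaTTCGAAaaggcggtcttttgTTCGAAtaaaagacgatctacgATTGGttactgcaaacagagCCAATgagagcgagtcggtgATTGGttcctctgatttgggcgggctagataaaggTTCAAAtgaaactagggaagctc
Mki67: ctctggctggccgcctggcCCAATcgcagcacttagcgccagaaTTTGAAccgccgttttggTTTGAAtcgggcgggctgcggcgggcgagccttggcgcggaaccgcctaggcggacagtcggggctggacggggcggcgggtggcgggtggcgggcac

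Libraries held between 18930841 and 23064578 counts, and the lowest count of any member in any library was 65, for E2f1 in wild-type replicate 3. Thra, the mutated gene, stood between 98.4 and 114 CPM (counts scaled to library size) in wild-type and between 113 and 137 CPM in mutant libraries, and counts per gene cannot show a frameshift. The hair cell list, with 7 of 8 markers tested, summed to between 149 and 205 CPM in wild-type and between 146 and 204 CPM in mutant libraries, so inner ear tissue was present in both. Wild-type replicate 2 stood apart by its haemoglobin genes, which took 4.88% of its counts against between 0.781% and 2.49% in the other 7 libraries. In each genotype, replicates 1 and 4 have 1 number in the title and replicates 2 and 3 have 2, and what the numbers stand for is not given in the sources used here.

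All 36 cell cycle genes had lower fitted values in mutant than in wild-type libraries, and none passed the threshold of an adjusted p under 0.05 over all genes tested. The median log2 fold change (mutant minus wild-type) was -0.76 over the 36, with a range from -1.12 for Mki67 to -0.25 for Ccne2, against a median of -0.0061 over all 21392 genes. Adjusted p lay between 0.867 and 0.967 (edgeR quasi-likelihood test, n = 4 and 4). Among all genes 0.0374% were called lower and 0.00467% higher at that threshold. At an unadjusted p under 0.05, 28 of the 36 were lower, against 3.09% of all genes tested that were lower. DESeq2 called 0 of the 36 as well, at an adjusted p of 0.132 or more, and 34 were lower at its unadjusted p under 0.05, against 3.69% of all genes lower and 2.73% higher. Its adjusted calls took 0.229% of all genes lower and 0.0888% higher. With title form as covariate 20 members (4.28% of all genes), and with neighbouring title numbers as a block 35 members (7.08%), were lower at that level in edgeR. The 36 values are not 36 separate observations, because the members moved together from library to library.

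**Figure D1:**
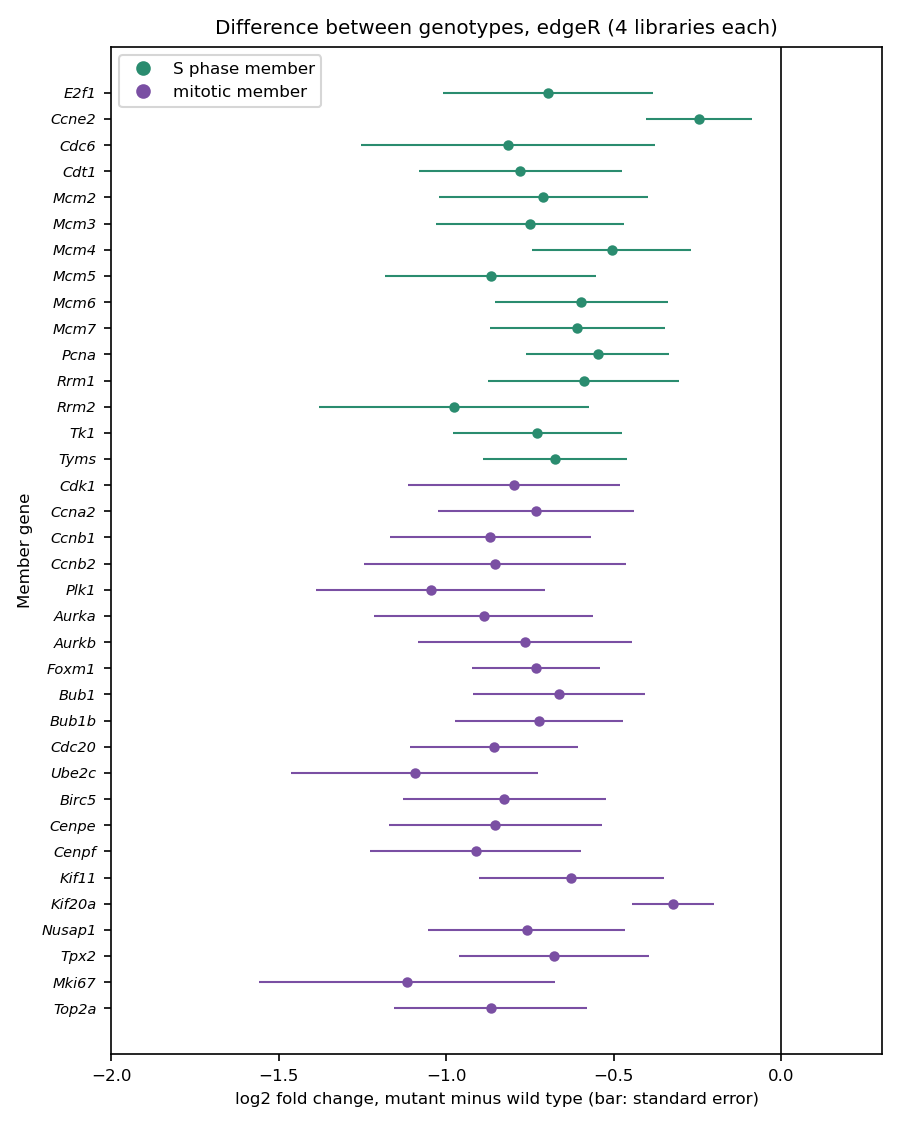
log2 fold change (mutant minus wild-type, horizontal axis) of each member, with its standard error as a bar, from edgeR on 4 libraries per genotype; green marks S phase and purple mitotic members. All 36 points lie left of 0, from -1.12 for Mki67 to -0.25 for Ccne2, and none passed an adjusted p under 0.05.

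The unadjusted count rested on single libraries. It was 18 without wild-type replicate 1 (2.29% of all genes lower), 5 without wild-type replicate 2 (1.62%) and 9 without wild-type replicate 4 (1.69%). It was 7 without mutant replicate 3 (1.81%) and 6 without mutant replicate 4 (2.07%). Without mutant replicate 1 it was 32 (3.32%) and without mutant replicate 2 it was 23 (4.85%). Without wild-type replicate 3 it was 35, but 5.91% of all genes were then lower at that level too. The direction did not depend on these libraries, as all 36 values stayed negative with each of the 8 left out in turn. Within libraries with 1 number in the title, and within those with 2, the mean log2 CPM of all 36 was also lower in mutant libraries.

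The libraries fell into nearly the same order for every member. Wild-type replicate 2 was the highest library for 29 members and wild-type replicate 4 for the other 7. Wild-type replicates 2 and 4 were among the 3 highest for all 36, and wild-type replicate 1 for 35. At the other end, mutant replicate 3 was lowest for 28 members, mutant replicate 4 for 7 and wild-type replicate 3 for 1, E2f1. Mutant replicates 3 and 4 were among the 3 lowest for all 36, and wild-type replicate 3 for 30. So 1 wild-type library lay among the mutant ones. The genotypes therefore overlapped for 35 of 36 members, and separated for Foxm1 alone, against 1.41% of all genes separated with mutant lower. With wild-type replicate 3 left out, 35 of 36 separated (all but Ccne2), against 6.27% of all genes.

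**Figure D2:**
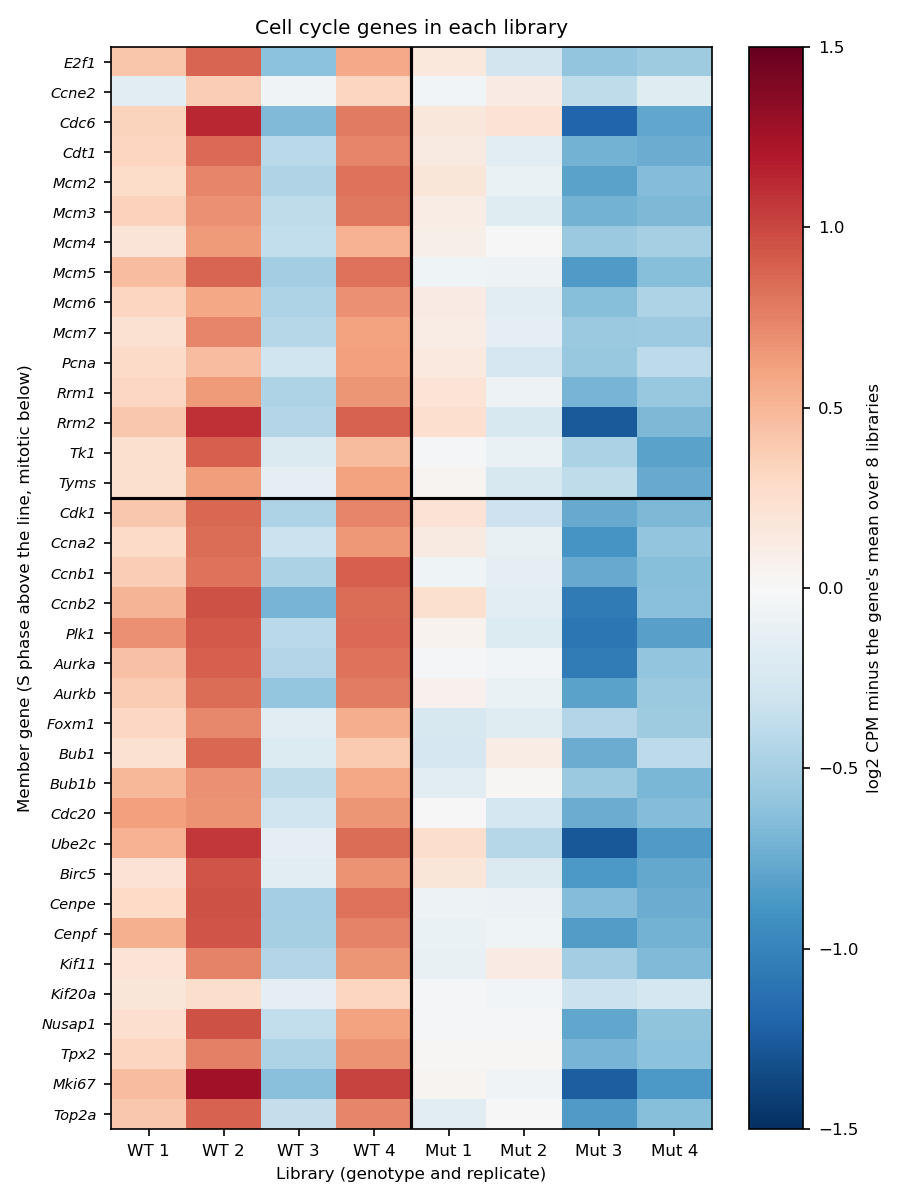
Each cell is the log2 CPM of a member (rows, grouped by role, S phase above the horizontal line) in a library (columns, wild type left and mutant right) minus that gene's mean over the 8 libraries. Columns are nearly uniform in colour: wild-type replicates 2 and 4 are high, mutant replicates 3 and 4 and wild-type replicate 3 are low, and Ccne2 and Kif20a are paler than the rest.

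The spread within a genotype was wide for these genes. The median within-genotype SD of log2 CPM was 0.49 over the 36 members, against 0.21 over the 19383 genes with a mean of at least 1 CPM, and the members' median lay at percentile 88.0 of those genes. Most of the spread over all 8 libraries, which includes the difference between genotypes, was shared. The shared part of the spread within a genotype was not computed. Over the 8 libraries the median SD of a member was 0.59, and it was 0.14 after the mean of the 36 members was subtracted in each library.

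Among genes that license origins and open S phase, the 4 members had a median log2 fold change of -0.74, and 1 of the 4 was under 0.05 unadjusted. Of all genes, 3.09% were lower at that level. E2f1, the transcription factor that drives the S phase set, held 7.06, 9.71, 3.38 and 7.82 CPM across wild-type replicates 1 to 4 and 5.88, 4.32, 3.44 and 3.60 CPM across mutant replicates 1 to 4. Its lowest value of all was thus in a wild-type library, and its log2 fold change was -0.70 (SE 0.31). Cdc6, which loads the helicase onto origins, ranged over 5.11 times between libraries, from 3.78 CPM in mutant replicate 3 to 19.3 CPM in wild-type replicate 2 (log2 fold change -0.82, SE 0.44). Cdt1, its partner in loading (chr8:122568015-122573554), stood at 12.7, 18.4, 7.65 and 16.9 CPM in wild-type and 11.2, 9.01, 6.20 and 6.03 CPM in mutant libraries (log2 fold change -0.78, SE 0.30, edgeR adjusted p = 0.924, n = 4 and 4). Only wild-type replicate 3 brought the genotypes of Cdt1 into overlap.

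Ccne2, a cyclin E that activates CDK2, differed from the rest of the S phase group. It stood at 16.3, 23.8, 17.7 and 23.0 CPM in wild-type and 17.8, 20.0, 14.1 and 16.2 CPM in mutant libraries, a log2 fold change of -0.25 (SE 0.16). Its highest library was only 1.69 times its lowest, against a range of 2.28 to 5.15 times for the other 14 S phase members. Of its exon bases, 17.4% are shared with Ints8 on the opposite strand. Whether counting used strand is not given in the sources used here. Ints8 itself stood between 34.5 and 42.7 CPM in all libraries, and its part in the Ccne2 counts was not tested.

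The 6 subunits of the MCM helicase, which form a ring with 1 copy of each, had log2 fold changes from -0.51 (Mcm4) to -0.87 (Mcm5), and 4 of the 6 were under 0.05 unadjusted (3.09% of all genes). Mcm5 (chr8:75109569-75128439) stood at 30.8, 41.2, 15.6 and 39.4 CPM in wild-type and 21.5, 21.2, 12.4 and 14.4 CPM in mutant libraries. Mcm6 (chr1:128331590-128359664) stood at 58.1, 69.1, 33.7 and 74.5 CPM against 50.5, 41.6, 29.8 and 33.7 CPM. For both, wild-type replicate 3 lay within the mutant range, while the other 3 wild-type libraries were above all mutant ones. Per length, in TPM (counts scaled by exon length and then by library), Mcm2 was the lowest subunit in all 8 libraries and the highest subunit was between 2.24 and 2.80 times Mcm2. The highest was Mcm6 in 6 libraries, Mcm7 in wild-type replicate 2 and Mcm4 in mutant replicate 2. Of the exon bases of Mcm7, 12.6% are shared with other genes, among them Ap4m1 on the opposite strand. Ap4m1 stood between 18.1 and 27.1 CPM in all libraries, and its part in the Mcm7 counts was not tested. The exon union of Mcm2 has 6956 bases and its longest transcript 3494. With the longest transcript as length, Mcm2 stood at 16.1 TPM in wild-type libraries, against 9.10 TPM with the exon union, so its place among the subunits depends on the length used.

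Pcna, the sliding clamp of the DNA polymerases (chr2:132249162-132253314), stood at 118, 133, 78.5 and 148 CPM in wild-type and 107, 81.1, 65.1 and 73.5 CPM in mutant libraries (log2 fold change -0.55, SE 0.21). Tyms, which makes thymidylate (chr5:30058202-30073617), stood at 16.1, 20.9, 12.3 and 20.7 CPM against 14.0, 11.5, 10.4 and 7.99 CPM. It had the smallest p of the S phase members (log2 fold change -0.68, SE 0.21, edgeR adjusted p = 0.907, n = 4 and 4). In Tyms, wild-type replicate 3 lay below mutant replicate 1 only. For Tk1, the salvage kinase for thymidine, the log2 fold change was -0.73 (SE 0.25).

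Ribonucleotide reductase makes deoxyribonucleotides from a large subunit, encoded by Rrm1, and a small subunit, encoded by Rrm2, that is limited to dividing cells. Rrm2 had the largest difference of the S phase group, at 50.3, 81.1, 27.9 and 70.5 CPM in wild-type and 45.1, 32.1, 15.7 and 23.7 CPM in mutant libraries (log2 fold change -0.98, SE 0.40). For Rrm1 it was -0.59 (SE 0.29). The ratio of Rrm2 to Rrm1, per length, was 2.94, 3.76, 2.80 and 3.23 in wild-type and 2.83, 2.46, 1.86 and 2.54 in mutant libraries. Only mutant replicate 1 reached into the wild-type range, at a value just above wild-type replicate 3. The ratio was formed after the values had been seen and was not tested.

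Among mitotic cyclins, kinases and their transcription factor, 7 of 8 members were under 0.05 unadjusted (3.09% of all genes), with a median log2 fold change of -0.83. Foxm1, a transcription factor of the G2 and mitotic set (chr6:128362967-128376146, plus strand), stood at 14.1, 18.7, 10.1 and 16.6 CPM in wild-type and 9.66, 10.02, 8.33 and 7.83 CPM in mutant libraries. The genotypes did not overlap, but wild-type replicate 3 and mutant replicate 2 differed only by 10.09 against 10.02 CPM. Its log2 fold change was -0.73 (SE 0.19), with the smallest p of the 36 (edgeR adjusted p = 0.867, n = 4 and 4). Plk1, a kinase of mitotic entry and spindle assembly, stood at 15.7, 18.5, 7.33 and 17.7 CPM against 10.1, 8.46, 4.55 and 5.50 CPM (log2 fold change -1.05, SE 0.34). Its 2 lowest values were those of mutant replicates 3 and 4, and wild-type replicate 3 came next.

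For Cdk1, the kinase of mitosis, the log2 fold change was -0.80 (SE 0.32), and its cyclins Ccna2, Ccnb1 and Ccnb2 had -0.73 (SE 0.29), -0.87 (SE 0.30) and -0.85 (SE 0.39). Cyclin A2, from Ccna2, acts in S phase as well as at mitotic entry, and it is counted with the mitotic set here. Of the exon bases of Ccna2, 12.5% are shared with Exosc9 on the opposite strand. Exosc9 stood between 40.4 and 55.3 CPM in wild-type and between 30.5 and 44.5 CPM in mutant libraries. Its part in the Ccna2 counts was not tested. In TPM, Ccnb2 was 3.87 ± 0.45 times Ccnb1 in wild-type libraries and 3.88 ± 0.67 times in mutant ones (SD, n = 4 each), so this ratio moved by less than its spread. Its size depends on the length used: by longest transcript the wild-type means were 30.9 TPM for Ccnb2 and 13.3 TPM for Ccnb1. For the Aurora kinases the values were -0.89 (SE 0.33) in Aurka, which acts at spindle poles, and -0.76 (SE 0.32) in Aurkb, which acts at centromeres.

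All 4 members of the spindle checkpoint and of the ubiquitin ligase that ends mitosis were under 0.05 unadjusted (3.09% of all genes). Cdc20, the activator of the anaphase-promoting complex (chr4:118432901-118437352), stood at 15.5, 16.2, 8.22 and 16.1 CPM in wild-type and 10.01, 8.41, 6.01 and 6.40 CPM in mutant libraries (log2 fold change -0.86, SE 0.25, edgeR adjusted p = 0.907, n = 4 and 4). Here 3 wild-type libraries were nearly equal and wild-type replicate 3 alone lay within the mutant range. Ube2c, the conjugating enzyme of that complex, ranged over 5.07 times, from 12.02 CPM in mutant replicate 3 to 61.0 CPM in wild-type replicate 2 (log2 fold change -1.09, SE 0.37). Of its exon bases 22.8% are shared with Tnnc2 on the opposite strand, which held at most 0.694 CPM in any library. For the spindle checkpoint genes the log2 fold change was -0.66 (SE 0.26) in Bub1 and -0.72 (SE 0.25) in Bub1b. Bub1 stood at 8.45, 13.2, 6.24 and 9.52 CPM in wild-type and 6.06, 7.82, 4.26 and 5.45 CPM in mutant libraries.

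Of the 7 members of kinetochores, motors and the spindle, 6 were under 0.05 unadjusted (3.09% of all genes). The log2 fold change was -0.85 (SE 0.32) for Cenpe and -0.91 (SE 0.31) for Cenpf, both kinetochore genes, and -0.83 (SE 0.30) for Birc5, the survivin subunit of the chromosomal passenger complex. The spindle proteins Nusap1 and Tpx2 had -0.76 (SE 0.29) and -0.68 (SE 0.28), and the motor Kif11 had -0.63 (SE 0.28).

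Kif20a, a motor of cytokinesis, was the exception among mitotic members. It stood at 27.3, 29.0, 22.003 and 30.2 CPM in wild-type and 23.9, 23.5, 19.3 and 20.1 CPM in mutant libraries, in nearly the order of the rest but over a range of only 1.56 times (log2 fold change -0.32, SE 0.12). It shares 29.3% of its exon bases with Cdc23 on the opposite strand, the largest share of the 36, and 25 of the members share none. Cdc23 stood between 47.7 and 55.7 CPM in all libraries, and its part in the Kif20a counts was not tested.

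Both members that act on chromosome structure were under 0.05 unadjusted (3.09% of all genes), with a median log2 fold change of -0.99. Mki67, which coats mitotic chromosomes and is the usual marker of dividing cells (chr7:135689784-135716361), stood at 295, 514, 139 and 434 CPM in wild-type and 221, 207, 90.8 and 118 CPM in mutant libraries. Its highest library was 5.65 times its lowest, the widest range of the 36, and its log2 fold change of -1.12 had a wide error too (SE 0.44, edgeR adjusted p = 0.924, n = 4 and 4). Top2a, the topoisomerase that untangles sister chromatids (chr11:98992943-99024189), stood at 99.4, 138, 58.3 and 124 CPM against 66.5, 74.6, 41.4 and 48.0 CPM (log2 fold change -0.87, SE 0.29). In both genes wild-type replicate 3 lay inside the mutant range and the other wild-type libraries lay above it.

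Set against each other, mitotic members differed slightly more between genotypes than S phase members. The median log2 fold change was -0.83 over the 21 mitotic and -0.70 over the 15 S phase members, and 19 of 21 against 9 of 15 were lower at an unadjusted p under 0.05, where 3.09% of all genes were. These are the 28 members whose number fell to as few as 5 with 1 library left out. As a value per library, the mean of centred log2 CPM over the S phase members was 0.28, 0.75, -0.39 and 0.66 across wild-type replicates 1 to 4 and 0.11, -0.11, -0.69 and -0.59 in mutant replicates 1 to 4. Over the mitotic members it was 0.39, 0.85, -0.39 and 0.71 in wild-type and -0.00024, -0.10, -0.81 and -0.64 in mutant libraries. Both sets put the 8 libraries in the same order.

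The S phase mean minus the mitotic mean was -0.11, -0.10, -0.0050 and -0.048 in wild-type and 0.11, -0.0084, 0.11 and 0.050 in mutant libraries. Its mean was -0.066 ± 0.048 for wild-type and 0.066 ± 0.057 for mutant (SD, n = 4 each). All 4 wild-type values were negative, 3 of 4 mutant values were positive, and mutant replicate 2 fell among the wild-type libraries. The shift of 0.13 between genotypes was small beside the shared difference of -0.72 in the mean of all 36 members. It was 0.16 within titles of 1 number and 0.11 within titles of 2 numbers. In summed CPM the S phase members made 0.612, 0.537, 0.689 and 0.602 of the mitotic sum in wild-type and 0.710, 0.632, 0.778 and 0.738 of it in mutant libraries. The libraries with the lowest levels, mutant replicates 3 and 4, had the highest of these summed ratios, and the highest library, wild-type replicate 2, had the lowest. Mki67 alone held a mean of 345 CPM of the mitotic sum of 1015 CPM in wild-type libraries. The difference of means had another order. There mutant replicate 1 (0.107) stood above mutant replicate 4 (0.050), and wild-type replicate 1 (-0.107) below wild-type replicate 2 (-0.103). As the members were chosen with their values known, no test of this score was made.

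**Figure D3:**
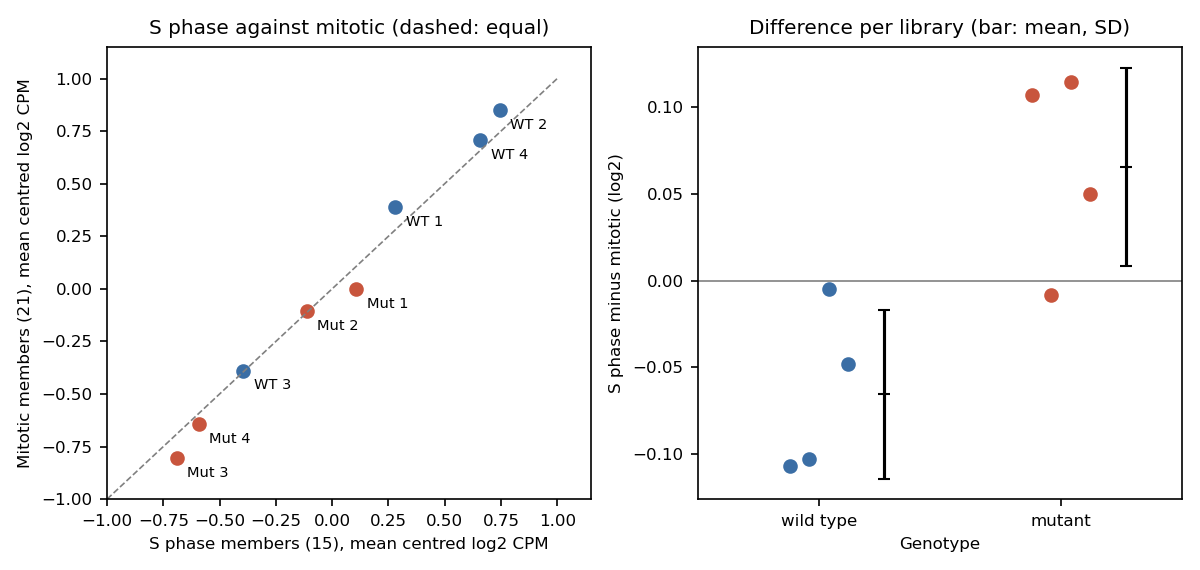
Left, the mean centred log2 CPM of the 15 S phase members (horizontal) against that of the 21 mitotic members (vertical) in each library, blue for wild type and red for mutant, with a dashed line of equality; right, the S phase mean minus the mitotic mean by genotype, with mean and SD (n = 4 each). The libraries lie close to the line from mutant replicate 3 at the bottom to wild-type replicate 2 at the top, and the difference on the right is -0.066 ± 0.048 in wild type and 0.066 ± 0.057 in mutant.

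Levels of the members were compared with each other per length. In wild-type libraries Pcna was highest at 83.6 ± 18.6 TPM (SD, n = 4), followed by Mki67 at 57.1 ± 25.1 TPM. Ccnb2, Rrm2, Ccna2 and Ube2c came next, from 34.8 ± 13.2 TPM for Ccnb2 to 29.3 ± 8.32 TPM for Ube2c. The lowest were Bub1 at 3.60 ± 0.930 TPM, E2f1 at 3.71 ± 1.27 TPM and Cenpf at 3.84 ± 1.27 TPM. In all 35 pairs of neighbours in this order the wild-type ranges overlapped. Compared within libraries, 6 of the 35 pairs had the upper gene higher in all 8, namely Pcna over Mki67, Mki67 over Ccnb2, Nusap1 over Tpx2, Tpx2 over Mcm5, Cdc20 over Plk1 and Mcm2 over Ccnb1. In the other 29 pairs the order changed in at least 1 library. The first 5 places were the same in mutant libraries, where Pcna stood at 59.9 ± 13.8 TPM and Mki67 at 27.9 ± 11.4 TPM (SD, n = 4 each). With the longest transcript as the length in place of the exon union, Pcna stood at 117 TPM in wild-type libraries and kept first place. Other places moved, as Rrm1 went from place 19 to 10, Mcm2 from 24 to 15, Tk1 from 29 to 20 and Plk1 from 17 to 26. The lowest were then E2f1 at 3.76 TPM, Cdc6 at 3.91 TPM and Bub1 at 4.06 TPM, so much of the order depends on the length used.

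**Figure D4:**
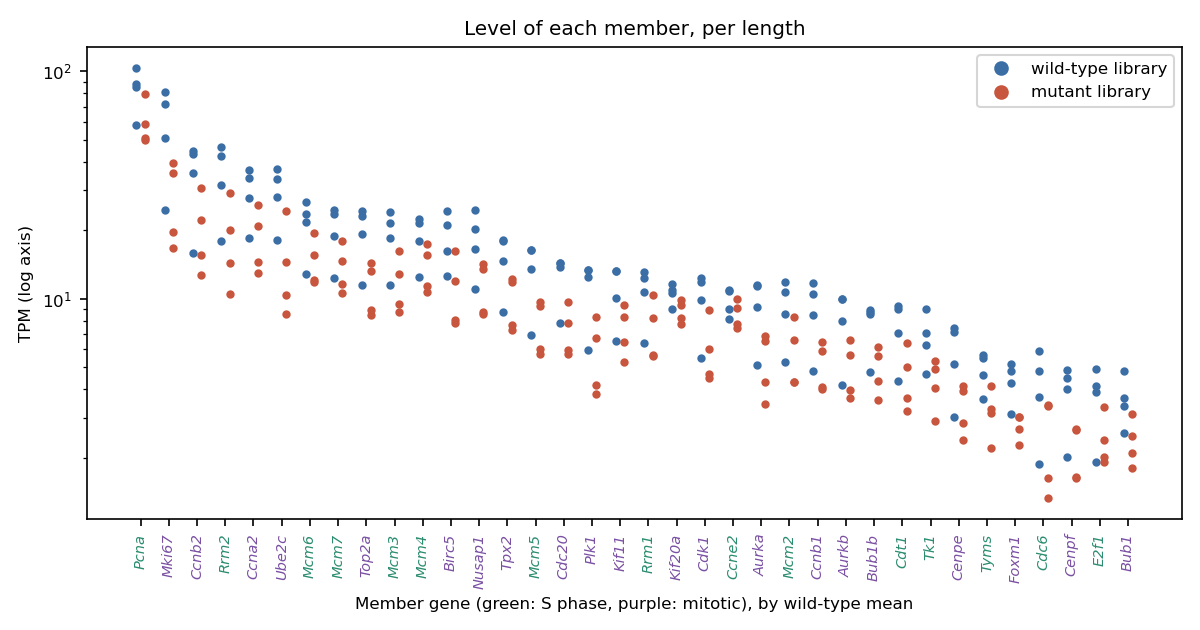
TPM of each member (log axis) in each library, blue for wild type and red for mutant, ordered by the wild-type mean; green names are S phase and purple names mitotic members. Pcna is highest at a wild-type mean of 83.6 TPM and Bub1 lowest at 3.60 TPM, and the genotypes overlap for most members.

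Other genes of the same processes followed the members. Of 60 further replication genes 59 were negative, with a median log2 fold change of -0.41, and 25 were lower at an unadjusted p under 0.05. Of 70 further mitosis genes all 70 were negative, with a median of -0.69, and 52 were lower at that level. Of all genes 3.09% were. In both lists 0 genes passed the adjusted threshold in edgeR. The smallest p belonged to E2f7, an E2F repressor (-0.92, SE 0.27), the polymerase subunit Pola1 (-0.45, SE 0.14) and the uracil glycosylase Ung (-0.61, SE 0.19) among replication genes. Among mitosis genes it belonged to the centromere protein Cenpm (-0.76, SE 0.17, edgeR adjusted p = 0.597), Cdca2 (-0.88, SE 0.23) and the cohesin protector Sgol2a (-0.82, SE 0.22). The median was again nearer 0 for replication than for mitosis genes.

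Genes that gate the exit from G1 had no common direction. The list held D-type cyclins and G1 kinases, CDK inhibitors and pocket proteins, further E2F, DP and MuvB subunits, Myc genes and antiproliferative genes. Of 30 tested 18 were negative and 12 positive, with a median log2 fold change of -0.049, and 0 passed the adjusted threshold. At an unadjusted p under 0.05, 4 were lower and 2 higher, where 3.09% of all genes were lower and 2.21% higher. Ccnd3, the D-type cyclin prominent in blood cells, had the smallest p (-0.38, SE 0.13, edgeR adjusted p = 0.907). Gas1, a growth arrest protein, stood at 0.41 (SE 0.14) on that scale, and the CDK4 and CDK6 inhibitor Cdkn2c had -0.60 (SE 0.21).

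Blood cell markers moved in part with the members. The erythroid list put the 8 libraries in the same order as the 36 members, with mean centred log2 CPM of 1.41 in wild-type replicate 2, 0.91 in wild-type replicate 4, 0.32 in wild-type replicate 1, 0.28 in mutant replicate 1, 0.033 in mutant replicate 2, -0.54 in wild-type replicate 3, -0.94 in mutant replicate 4 and -1.47 in mutant replicate 3. All 14 of its 14 genes were negative between genotypes, 0 were called and 2 were lower at an unadjusted p under 0.05 (edgeR). Of all genes tested 51.7% were negative and 3.09% were lower at that level. Its summed level ranged from 13038 to 50462 CPM in wild-type and from 7759 to 19258 CPM in mutant libraries. Most of this sum came from the haemoglobin genes, of which Hba-a1 alone held 20099 CPM in wild-type replicate 2. Gata1, the erythroid transcription factor, stood at 15.3, 29.9, 11.2 and 19.9 CPM in wild-type and 14.7, 10.7, 5.33 and 4.66 CPM in mutant libraries. The part of erythroid cells in the cell cycle values was not tested.

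B cell precursor markers were negative in 10 of 11, summing to between 298 and 443 CPM in wild-type and between 200.1 and 389 CPM in mutant libraries, with 0 called and 4 lower at an unadjusted p under 0.05 (edgeR, 3.09% of all genes). Of these sums Ebf1 held between 134 and 200 CPM in wild-type and between 122 and 209 CPM in mutant libraries. The order of the libraries in this list was not that of the members. Wild-type replicate 4 was highest at 0.76, with wild-type replicate 2 at 0.47 and mutant replicate 1 at -0.55. Dntt, which adds bases at antigen receptor joints, stood at 15.5, 6.77, 6.92 and 15.8 CPM against 4.43, 4.78, 2.67 and 2.33 CPM, without overlap (log2 fold change -1.66, SE 0.38, edgeR adjusted p = 0.597, n = 4 and 4). It alone of this list separated the genotypes, where 1.41% of all genes separated with mutant lower. The smallest differences of the list were those of Ebf1 (0.018, SE 0.19), Rag2 (-0.18, SE 0.15) and Rag1 (-0.33, SE 0.42). Granulocyte precursor markers were negative in 6 of 6, 0 of them under 0.05 with or without adjustment, summing to between 56.1 and 257 CPM against between 60.5 and 209 CPM, but their order differed from that of the members. Mutant replicate 2 was high for them at 0.93 and mutant replicate 1 low at -0.80, where the 36 members had -0.11 and 0.044. No marker of the erythroid, B cell and granulocyte precursor lists was at 0 in any library, and the part of B cell and granulocyte precursors was not tested. Neutrophil markers were negative in 7 of 8 (median log2 fold change -0.34) and macrophage markers in 4 of 7 (-0.040), with 0 under an unadjusted p of 0.05 (edgeR) in either. The neutrophil list was highest in mutant replicate 2 (0.95) and lowest in mutant replicate 1 (-0.93), unlike the members.

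Mucosal epithelium, whose basal cells divide, was negative in 8 of 8 markers and 4 were called lower, against 0.0374% of all genes. Its summed level was between 193 and 636 CPM in wild-type and between 7.29 and 14.2 CPM in mutant libraries. Bpifa1 alone held between 157 and 519 CPM of that sum in wild-type libraries. Unlike that of the members, the mean of this list separated the genotypes and left wild-type replicate 3 (1.60) with the other wild-type libraries (1.44 to 2.37). Gene by gene, the basal cell factor Trp63 (log2 fold change -0.20, SE 0.26) and Reg3g (-2.24, SE 0.73) overlapped between genotypes. The part of mucosal epithelium in the cell cycle values was not tested. Bone and cartilage lists had medians of the other sign, but held markers of both directions. Osteoblast markers were positive in 6 of 8 (median log2 fold change 0.25, 5411 to 9125 CPM against 6913 to 12277 CPM), while Bglap (-0.21) and Bglap2 (-0.23) were negative. Chondrocyte markers were positive in 4 of 6 tested (0.11, 745 to 2808 CPM against 1299.6 to 4827 CPM). In either list 0 were called, and 10341 of all 21392 genes tested were positive.

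**Figure D5:**
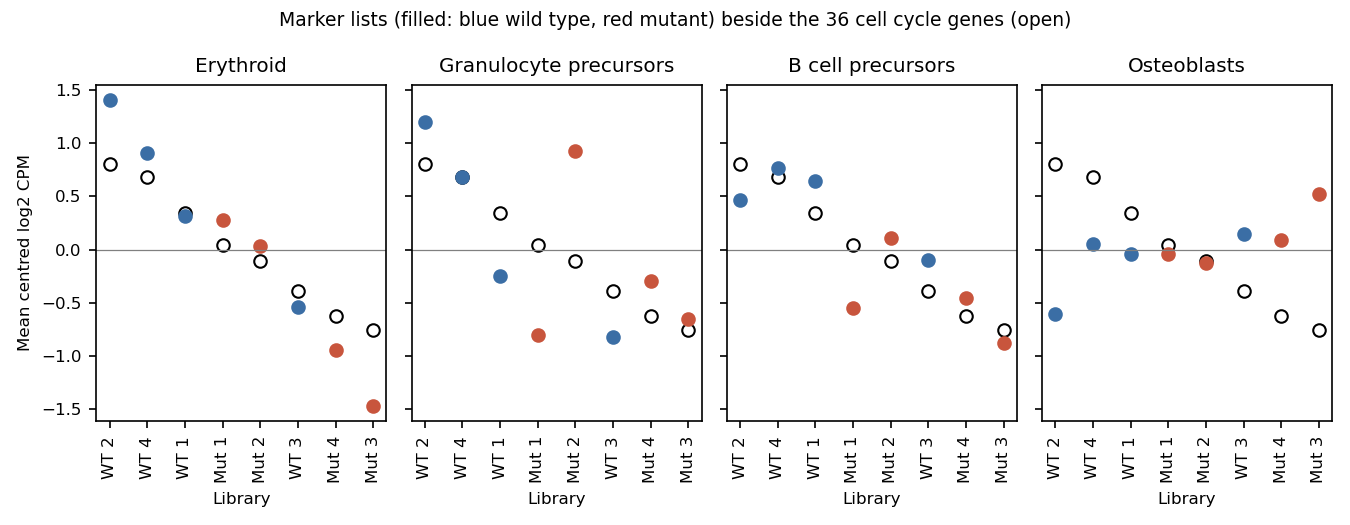
Mean centred log2 CPM of 4 marker lists (filled, blue for wild type and red for mutant) and of the 36 cell cycle genes (open circles, the same in each panel) in the 8 libraries, ordered by the cell cycle genes. The erythroid list descends in the same order, from 1.41 to -1.47. The granulocyte list does not: it is high in mutant replicate 2 (0.93) and lowest in wild-type replicate 3 (-0.82). The B cell list is highest in wild-type replicate 4 (0.76), with wild-type replicate 2 at 0.47 and mutant replicate 1 at -0.55. Osteoblast markers are lowest in wild-type replicate 2 and highest in mutant replicate 3.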

How the data were processed

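The authors deposited raw counts per gene symbol, 1 file per library. The submitters' processing notes name FastQC, STAR, HTSeq and build mm10, all without a version. The library kit carries molecular identifiers, per the labels' protocols. Of the annotation, strand setting and use of the identifiers nothing is stated. No 2 libraries agreed within sampling noise (lowest chi-square per degree of freedom 17.3).

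All symbols were fitted together in edgeR 4.0.16 (R 4.3.3) with TMM scaling, filterByExpr, robust quasi-likelihood dispersions and genotype alone, and Benjamini-Hochberg adjustment over 21392 symbols. The code was tested on simulated data. CPM use TMM sizes, and log2 CPM a prior count of 2. TPM use exon lengths of GENCODE M21 (GRCm38, the assembly of mm10) for 45236 symbols. DESeq2 1.42.0, other scalings and filters, a covariate, a block and left-out libraries were alternatives.

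Members and gene lists were chosen with earlier results of these data known, so no score over members was tested. All members are named. Values per library are given for those of smallest p per role, without overlap between genotypes, or of highest and lowest level, and for some chosen after their values were seen, as were Gata1 and Dntt. Of each wider list up to 3 genes of smallest p are named.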

Additional observations from a re-analysis of the deposited data

Results flagged for a closer look

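In Cdc20, wild-type replicate 3 stood apart from its group at 8.22 CPM, where the other 3 wild-type libraries held 15.5, 16.2 and 16.1 CPM. The gap passed Dixon's 95% critical value for 4 samples. This was 1 of 78 groups examined, and chance gives about 1 in 20 groups. The same library was low for nearly all members, but in the other genes the 3 higher wild-type libraries were too far from each other for it to stand apart by this measure.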

How the results depend on the processing

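Under 17 alternatives all 612 fold changes of members remained negative and 0 passed an adjusted p under 0.05 (lowest 0.0994). The S phase minus mitotic difference of medians lay between 0.087 and 0.18. Members lower at an unadjusted p under 0.05 numbered between 5 and 35 with each library left out in turn. Over all genes 8 were called lower and 1 higher. DESeq2 called 49 lower and 19 higher, and title form as covariate 4 lower. With each library left out, between 4 and 9 were called lower and between 2 and 5 higher. The causes were not tested. A replicate block made of neighbouring title numbers, which assumes a pairing, gave 12 lower and 17 higher genes, 35 members lower at an unadjusted p under 0.05, and Bub1 as the member of smallest adjusted p (0.0994). Deviations from genotype means correlated over 19383 genes by 0.14, 0.27, 0.20 and -0.036 in the 4 assumed pairs, and only in replicates 2 and 3 were the 2 libraries each other's best match. As 1 of the 4 lay under 0.1 and the labels state no pairing, the block was kept as an alternative. The S phase minus mitotic mean was higher in the mutant library of all 4 assumed pairs. Only wild-type replicate 3 (-0.0050) lay above any mutant library, mutant replicate 2 (-0.0084). Any pairing that keeps these 2 apart gives the same count, so it adds nothing to the values by genotype. Pcna stood at 117 TPM by longest transcript and 83.6 TPM by exon union. Every member held at least 65 counts in each library.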
